A study of Homo sapiens with 19 samples.

Results

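The comparison was between the RNA of stress granule (SG) cores and the RNA of the lysate they were taken from, in SH-SY5Y cells, a human neuroblastoma line, treated with sodium arsenite (AS). A protein-coding gene was a member when its TPM (transcript abundance scaled to the library) was above 1 in the SG library or in the lysate library, called Total. This held for 13560 of the 19942 genes in the table, and 13548 of them had an annotated transcript length. Of the members, 10958 were above 1 TPM in both libraries, 2486 in SG only and 116 in Total only. Just outside this limit, OCM was listed at 0 in Total and had 0.999 TPM in SG, and just inside it NBPF6 had 0.35 and 1.00 TPM.

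After AS treatment the cells were lysed through a needle and the lysate was cleared. A small part of the cleared supernatant gave Total, and SG cores were pelleted from the rest and captured with an anti-G3BP1 antibody and magnetic beads. There was 1 Total and 1 SG library. A library of cells given a control siRNA (siCtrl) stood in the same table. The rRNA-depleted libraries of untreated and AS-treated cells, 1 of each, stood in another table with its own normalization. Also used were 8 eCLIP libraries, which hold RNA crosslinked to G3BP1 or G3BP2. By their titles, there were 2 from untreated and 2 from AS-treated cells for each protein. The labels state 50 mM AS for 1 h for Total and SG. They attach the same text to siCtrl and to all 8 eCLIP libraries, those titled as controls included. The label of the rRNA-depleted AS library states 500 μM for 1 h. The methods of the paper name only the lower of these doses, and mention no AS for cells given siRNA. The siCtrl library was therefore read here as coming from cells not given AS. The control eCLIP libraries were read as untreated from their titles and the paper, against their labels. The labels also state that the knockdown and SG libraries were made from poly-A RNA. With 1 library a side there is no replicate error and no test, so every count and median is a description of these libraries. TPM holds no read depth, which is unknown.

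SGs are cytoplasmic assemblies of RNA and protein that form when translation initiation is blocked, as it is under AS, and ribosomes run off their mRNAs. G3BP1 and G3BP2 bind RNA and hold the assembly together, and the stable substructures that outlast lysis are called cores. mRNAs of the translation machinery often begin with a 5′ terminal oligopyrimidine (TOP) tract, a C followed by pyrimidines, through which their translation is controlled as a group. mRNAs of replication-dependent histones are a class apart, since most end in a conserved stem-loop and not in a poly-A tail.

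The sequence features of the groups at the ends of the comparison are shown first. The first 20 bases of the RefSeq transcript are given for 3 mRNAs far below the level predicted from their length, RPL39, RPL14 and TPT1, and for EIF4B, which has the same kind of start and lay above it. Capitals mark the C and the pyrimidine run that follows it. On GRCh38.p14, they lie at chrX:119791611-119791630 (minus strand), chr3:40457339-40457358 (plus), chr13:45341164-45341183 (minus) and chr12:53006456-53006475 (plus).
RPL39: CCCTCCTCTTCCTTTCTCCg
RPL14: CTTCTCgcctaacgccgcca
TPT1: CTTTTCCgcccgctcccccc
EIF4B: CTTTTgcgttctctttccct

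The 3′UTR stem-loop is given for H2BC18 and H1-4, the listed histones farthest above the prediction, and for H2AC25 and H2AX, which did not lie above it by more than 2-fold. Capitals mark the match to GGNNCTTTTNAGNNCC, searched on the sense strand of annotated 3′UTRs. On GRCh38 with GENCODE annotation, they lie at chr1:149811880-149811905 (minus strand), chr6:26157090-26157115 (plus), chr1:228457364-228457389 (minus) and chr11:119094893-119094918 (minus).
H2BC18: ccaaaGGCTCTTTTCAGAGCCacttc
H1-4: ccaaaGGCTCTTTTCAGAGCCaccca
H2AC25: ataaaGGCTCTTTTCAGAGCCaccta
H2AX: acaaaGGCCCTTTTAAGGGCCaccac

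Most members had a larger share of the SG library than of Total. SG TPM exceeded Total TPM for 10845 members, or 80.0%, and the median of log2((SG + 1)/(Total + 1)), called the log2 ratio here, was 1.51. Both values lean on the filter, since the 2486 members above 1 TPM in SG only are higher in SG by construction. Only 116 entered through Total alone. TPM are shares of a library, so these values compare shares and not amounts, and in bulk RNA more cells with a transcript and more of it per cell cannot be told apart. Across the 13548 genes the log2 ratio followed the length of the longest annotated transcript, with a Spearman rho of 0.632 and a Pearson r of 0.583 against log10 length. These genes share both libraries and are not independent replicates. The running median over 40 length bins went from -1.15 at 936 nt through 0.49 at 2333 nt and 1.48 at 3576 nt to 3.69 at 13896 nt. The shortest bin, at 592 nt, stood apart at 0.50.

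**Figure D1:**
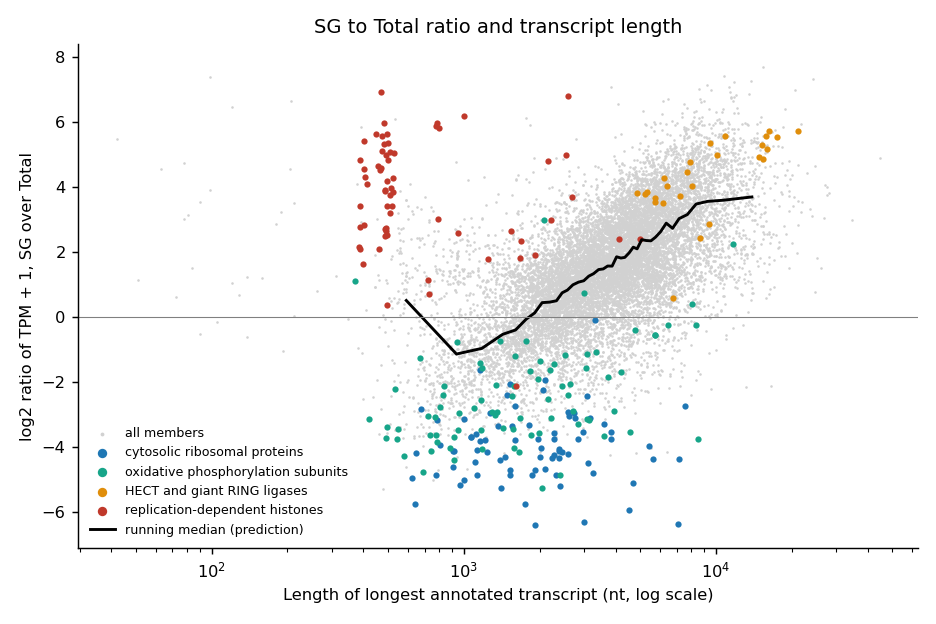
Each grey point is a member, placed by the length of its longest annotated transcript (nt, log axis) and its log2((SG + 1)/(Total + 1)). The line is the running median used as the prediction, which climbs from -1.15 at 936 nt to 3.69 at 13896 nt. Coloured points are cytosolic ribosomal proteins, oxidative phosphorylation subunits, HECT and giant RING ubiquitin ligases and replication-dependent histones. The ribosomal points all lie under the line and most histone points lie over it.

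The difference between a gene's log2 ratio and this running median removes both length and the library-wide median, and it is the quantity used from here on. Its SD over genes was 1.45, against 1.87 for the log2 ratio, and its rho with length was -0.0183. Its quartiles were -0.89 and 0.87, and its 5th and 95th percentiles were -2.55 and 2.1. Genes more than 2-fold above the prediction, 1 on the log2 scale, numbered 2939, or 21.7% of all, and genes more than 2-fold below it numbered 3054, or 22.5%. The remaining 7555 lay between. Over genes above 1 TPM in both libraries, 2278 lay above and 2447 below by the same limit. At the upper limit the nearest genes were SCAMP3 just under it at 0.999 and SOX2 just over it at 1.00, and at the lower limit NNAT at -0.999 and MED21 at -1.0.

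The classes hold very different parts of each library. Genes above the prediction made up 2.89% of the protein-coding TPM of Total, 30.2% of that of SG and 5.86% of that of siCtrl. For genes below the prediction the shares were 68.1% in Total, 18.1% in SG and 58.6% in siCtrl. The lower end therefore held the abundant mRNAs of the lysate and the upper end mostly scarce ones, with median Total TPM of 24 and 2.48. Since Total enters the difference itself, that contrast is partly built in, but the siCtrl library, which does not enter it, had medians of 25.9 and 6.14 TPM.

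Of 60 functional lists with members, 13 had a median more than 2-fold below the prediction, 6 had one more than 2-fold above it and 41 lay within 2-fold. The median over all members was 0.00. Counts in the lists below stand beside 21.7% of all members more than 2-fold above and 22.5% more than 2-fold below. Genes named below with less than 1 TPM in Total, such as ASH1L, ARID2, CREBBP, PLXNA4 and ZNF460, were members through SG alone. They are higher in SG by construction, and apart from the histones their number in each list is not given. The lower 13 covered protein synthesis, import and breakdown, mitochondrial energy metabolism, glycolysis, Sm and LSm proteins and cytoskeletal monomers. The upper 6 were replication-dependent histones, HECT and giant RING ubiquitin ligases, chromatin remodelers, histone lysine methyltransferases and demethylases, and 2 lists of transcription factors.

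**Figure D2:**
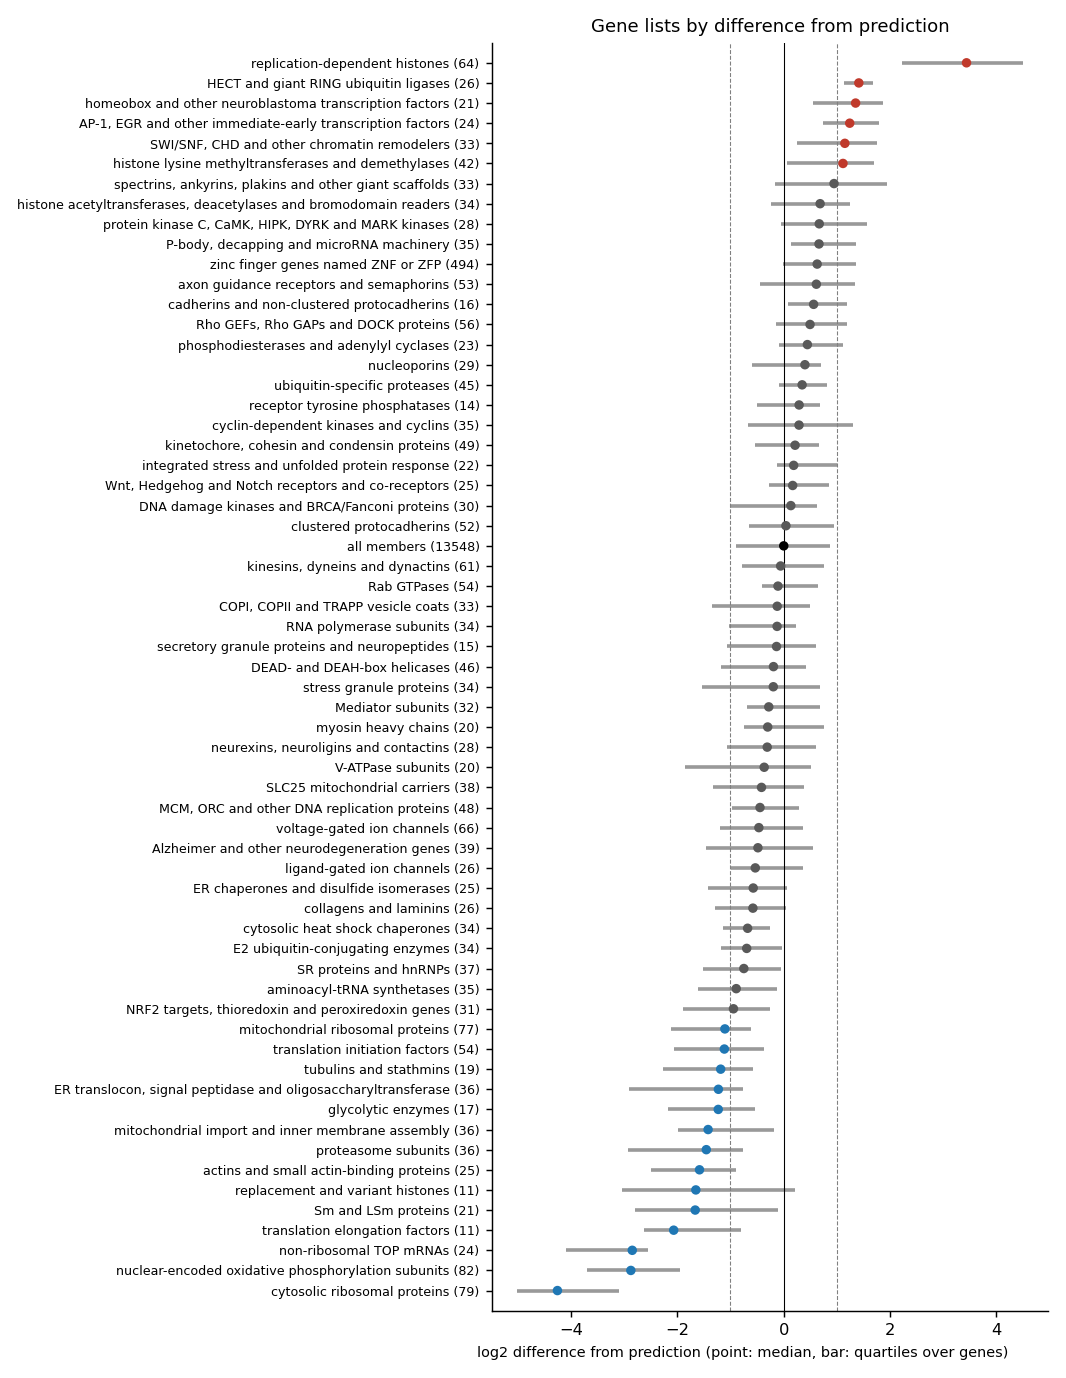
Each row is a functional list with its number of members in brackets, with all members and the replacement and variant histones added. Points are medians of the difference from the length-predicted log2 ratio, bars span the quartiles over genes, and dashed lines mark 2-fold either way. Cytosolic ribosomal proteins are lowest at -4.25 and replication-dependent histones highest at 3.44.

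Cytosolic ribosomal proteins, the proteins assembled on the ribosome's RNA, formed the lower extreme. All 79 lay below the prediction and 78 by more than 2-fold, where the background is 22.5%. Their median difference was -4.25, with quartiles of -5.0 and -3.09. Together they held 26.3% of the protein-coding TPM in Total, 19.7% in siCtrl and 1.53% in SG, and their medians were 1688, 1388 and 107 TPM. The lowest ribosomal protein in Total, at 183 TPM, lay above the median of the 79 in SG.

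RPS29, a small-subunit protein, was lowest, with 524 TPM in siCtrl, 931 in Total and 10.1 in SG. RPL37A, of the large subunit, had 1798, 2309 and 27.7 TPM, and RPL39, the large-subunit protein whose start is shown above, had 1540, 2324 and 26.2. Each of these mRNAs was scarcer in SG than in either other library. Differences from the prediction were -9.36 for RPS29, -7.44 for RPL37A and -6.55 for RPL39. RPL14 had 729, 1123 and 52.4 TPM, a difference of -7.41. The size of these values leans on the annotation, since the longest transcript of RPS29 has 7062 nt and its canonical one 295 nt. With the canonical length the difference of RPS29 was -6.47 and the median of the list -3.54.

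At the other edge of the list, RPL7A had 360 TPM in siCtrl, 457 in Total and 147 in SG and a difference of -0.65, the only one of the 79 within 2-fold. RPS24 had 1283, 183 and 170 TPM, so that Total and SG were close while siCtrl was far higher. Its log2 ratio was -0.11 and its difference from the prediction -1.46. Ribosomal protein genes have many near-identical pseudogenes, so single values in this list are uncertain.

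TOP starts followed the same line. Of 63 ribosomal proteins with a RefSeq start, 43 (68.3%) began with C and at least 4 pyrimidines, against 577 of 10685 members (5.4%) and 4.07% of all RefSeq starts. The share was 8.32% among genes below the prediction, 4.72% near it and 3.98% above it. With ribosomal proteins and the listed TOP mRNAs left out, 520 members kept such a start, and their median was -0.29, with 29.0% more than 2-fold below the prediction and 17.1% above it. A match to these letters describes the annotated start and does not show control through it.

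Non-ribosomal TOP mRNAs, a list taken from general knowledge of this class, lay below the prediction in 23 of 24 cases, 22 by more than 2-fold, with a median of -2.85. TPT1, a protein of cell growth, had 580 TPM in siCtrl, 741 in Total and 39.7 in SG, a difference of -6.30. NACA, a chaperone subunit at the ribosome exit, had 486, 610 and 33.2 TPM and a difference of -7.03, although its exons overlap those of PRIM1. EEF1A1, the factor that brings aminoacyl-tRNA to the ribosome, had 2291, 2648 and 822 TPM and a difference of -4.06. The exception, EIF4B, a cofactor of the helicase in the cap-binding complex, stood at 74.8 TPM in siCtrl, 75.3 in Total and 366 in SG, 0.70 above the prediction. PABPC1, the poly-A binding protein, lay within 2-fold at -0.55, with 536 TPM in Total and 1006 in SG.

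The factors of translation were low as a group but not uniformly. Of 11 elongation factors, 7 lay more than 2-fold below the prediction and none above, with a median of -2.07. Of 54 initiation factors 29 were below and 6 above, with a median of -1.11. Subunits of eIF3, the scaffold of the initiation complex, were among the lowest, EIF3E with 169 TPM in Total and 31.1 in SG (-5.68) and EIF3H with 155 and 26.9 (-4.19). EIF2AK3, the kinase PERK that shuts initiation down under ER stress, was the highest of that list, with 0.993 TPM in Total, 56.1 in SG and 5.69 in siCtrl (2.7). Aminoacyl-tRNA synthetases stayed inside 2-fold by their median, -0.89, with 16 of 35 below and 3 above.

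Nuclear-encoded subunits of oxidative phosphorylation came second among the lists. Of 82 members 73 lay more than 2-fold below the prediction and 1 above, and the median was -2.87, with quartiles of -3.69 and -1.95. The summed TPM of the list was 16099 in siCtrl, 18566 in Total and 2765 in SG. UQCRB, a complex III subunit, had 119 TPM in siCtrl, 96.5 in Total and 6.18 in SG, a difference of -7.25. NDUFA4, a cytochrome oxidase subunit once assigned to complex I, had 160, 206 and 4.38 TPM and a difference of -5.68. Subunits of complex II stood nearer to the prediction, the catalytic SDHA with 43.7, 33.4 and 55.8 TPM at -0.40 and the membrane anchor SDHC with 82.9, 78.8 and 46.9 TPM at -0.15. The median length of the list was 1591 nt, where the prediction itself is below an equal share.

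Other mitochondrial groups were lower by less. Mitochondrial ribosomal proteins, which like the oxidative phosphorylation subunits are made in the cytosol and imported, had a median of -1.10, with 43 of 77 more than 2-fold below and 1 above. MRPS22 was lowest at 49.0 TPM in Total and 13.2 in SG (-4.61), and MRPS26 highest at 122 and 131 (1.18). The import and inner membrane assembly list had a median of -1.42 with 19 of 36 below. Members of the SLC25 family, the metabolite carriers of the inner membrane, had a median of -0.42 with 12 of 38 below and 4 above. mRNAs encoded by mitochondrial DNA were not analysed here.

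The proteasome, translocon and spliceosomal core lists shared this side. Of 36 proteasome subunits 24 lay more than 2-fold below the prediction and none above, with a median of -1.45. The alpha-ring subunits PSMA6 (253 TPM in Total, 41.5 in SG, -4.72) and PSMA2 (106 and 20.5, -4.66) were lowest, and the regulatory subunit PSMD2 (121 and 280, 0.12) stood near the prediction. Of 36 genes of the ER translocon, signal peptidase and oligosaccharyltransferase, 23 were below and none above, with a median of -1.23 and SSR4, a translocon-associated subunit, lowest at 177 and 8.75 TPM (-4.94). The Sm and LSm proteins, rings that hold spliceosomal and decay RNAs, had a median of -1.66 with 13 of 21 below. LSM14B, an LSm-domain protein of P-bodies and SGs, was an exception in that list, with 41.6 TPM in siCtrl, 16.7 in Total and 95.6 in SG (1.62).

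Cytoskeletal monomers and glycolytic enzymes were the last lists on this side. Actins and small actin-binding proteins had a median of -1.58, with 18 of 25 more than 2-fold below and none above. TMSB10, a thymosin that binds actin monomers, had 2105 TPM in siCtrl, 2825 in Total and 232 in SG (-4.10). Tubulins and stathmins had a median of -1.18 with 10 of 19 below and none above, and the neuronal tubulin TUBB3 had 975, 689 and 252 TPM (-3.80). Glycolytic enzymes had a median of -1.23 with 10 of 17 below and 1 above. GAPDH was among the lower of them at 6994, 8061 and 1325 TPM (-2.44), while HK2, an inducible hexokinase, had 18.3, 7.38 and 161 TPM (1.89).

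These 13 lists are mostly lists of abundant mRNAs, and the level moved with the difference. When the prediction used the siCtrl level together with length, 5 of 60 lists stayed more than 2-fold below. These were cytosolic ribosomal proteins at -1.91, oxidative phosphorylation subunits at -1.83, non-ribosomal TOP mRNAs at -1.32, the ER translocon list at -1.16 and the Sm and LSm proteins at -1.13. Glycolytic enzymes then had a median of 0.15 and elongation factors one of -0.06. The part of the level in these values was not tested further.

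The upper extreme belonged to replication-dependent histones, whose genes package newly made DNA and are used in S phase. Of the 67 listed, 64 were members, and 59 of these lay more than 2-fold above the prediction from length and 1 below it, where the background is 21.7%. Their median difference was 3.44, with quartiles of 2.22 and 4.5. Of the 64, 63 had a higher TPM in SG than in Total, against 80.0% of all members. The median was 0.833 TPM in siCtrl, 1.43 in Total and 49.6 in SG. The summed TPM of the 67 was 244 in siCtrl, 316 in Total and 3593 in SG, or 0.0506% of the protein-coding TPM in Total and 0.488% in SG.

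H2BC18, an H2B gene, had 0.795 TPM in siCtrl, 0.918 in Total and 139 in SG, a difference of 7.28 that is the highest of all members. That rank leans on the annotated length, since its log2 ratio of 6.19 was below those of H2BC14 (6.93) and H2BC6 (6.80). H1-4, a linker histone, had 0.124, 1.04 and 128 TPM and a difference of 6.51. H2BC14 was listed at 0 in siCtrl and in Total and had 121 TPM in SG, so that no fold is given. Other linker histones were alike, H1-5 with 0.121, 1.12 and 119 TPM (6.39) and H1-3 listed at 0 in siCtrl with 0.549 in Total and 91.1 in SG (6.37). In Total 4 of the 64 were listed at 0 and 26 were under 1 TPM, which made those 26 members through SG alone. In SG 56 of the 64 were above 10 TPM. The lowest, H2AC25, had 33.9 TPM in siCtrl, 32.5 in Total and 6.72 in SG (-1.73), and H2BC12 had 60.5, 87.6 and 113 TPM (-0.14). Histone copies are near-identical, so values of single genes are uncertain.

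The direction of the histone list turned with the library it was set against. In the rRNA-depleted libraries, whose values are a separately normalized signal and not set on the scale of TPM, the 67 summed to 6963 in untreated and 7623 in AS-treated cells, and 54 of the 64 members were above 10 in the latter. H2BC18 had a signal of 391 and H1-4 one of 132 after AS. Against the rRNA-depleted AS library as denominator the list's median difference was -1.91, and against siCtrl it was 3.98. The labels state poly-A selection for SG and Total, and the part of the selection in the histone values was not tested.

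Stem-loops were found in the 3′UTR of 61 of the 64 histone members, including H2AC25 at the lower edge. In all, 77 members (0.568%) held the motif, 16 of them outside the list, and 77.9% of the 77 lay more than 2-fold above the prediction. That share rests mainly on the listed histones, since most of the 16 lay within 2-fold. Among the 16, PRKCE (3.51) and the histone gene H3-7 (2.87) were high. CDK2 (0.64), CDR2L (0.31) and SMAD4 (-0.43) lay within 2-fold, and SCLY (-1.29) and G6PC3 (-1.97) were low. Replacement and variant histones, which are also made outside S phase and mostly end in poly-A, were added after the values were seen. Of 11 members 6 lay more than 2-fold below and 2 above, with a median of -1.65. H3-3A, which encodes H3.3, had 1408 TPM in siCtrl, 1557 in Total and 185 in SG (-3.12). H2AZ1 had 472, 568 and 77 TPM (-2.95). H2AX, which can end either way and holds the stem-loop, had 531, 405 and 343 TPM (0.18).

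**Figure D3:**
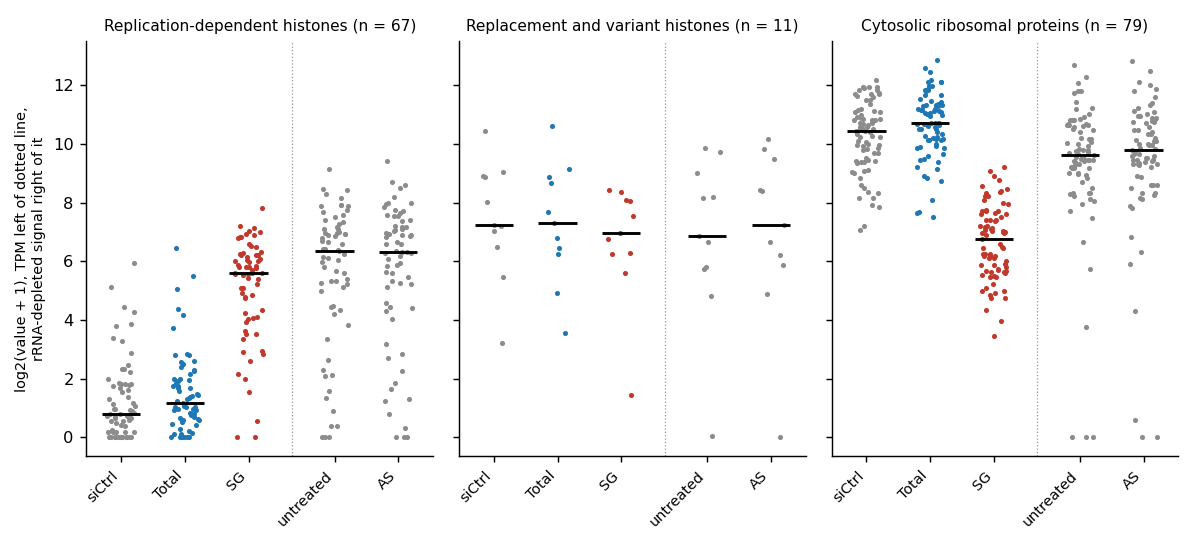
The 3 panels show 67 replication-dependent histones, 11 replacement and variant histones and 79 cytosolic ribosomal proteins. Each point is a gene on a log axis, with TPM in siCtrl, Total and SG left of the dotted line and the separately normalized rRNA-depleted signal in untreated and AS-treated cells right of it. Black bars are medians. Histone medians are low in siCtrl and Total and high in SG and in the rRNA-depleted libraries, and ribosomal medians drop from 1688 TPM in Total to 107 in SG.

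HECT and giant RING ubiquitin ligases, very large enzymes that attach ubiquitin to targets, lay above the prediction in 23 of 26 cases. Of these, 20 were more than 2-fold above and 2 of the 26 were more than 2-fold below. The median was 1.41, with quartiles of 1.13 and 1.68, on top of the high ratio already predicted for a median length of 8321 nt. BIRC6, an inhibitor of apoptosis with ligase activity, had 6.27 TPM in siCtrl, 2.52 in Total and 186 in SG (2.04). HUWE1, a HECT ligase of the nucleus and cytosol, had 30.6, 14 and 450 TPM (1.22). ITCH was lowest at 25.3, 26.0 and 39.1 TPM (-2.16). The median was 0.78 with siCtrl as denominator and -0.02 with the rRNA-depleted AS library, so the list's position depends on the library it is set against.

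Chromatin regulators of great length behaved alike. Histone lysine methyltransferases and demethylases had a median of 1.12, with 23 of 42 more than 2-fold above the prediction and 3 below. KMT2D, an enhancer H3K4 methyltransferase, had 14.3 TPM in siCtrl, 1.70 in Total and 344 in SG (3.30). ASH1L had 5.46, 0.977 and 171 TPM (2.8), and the demethylase KDM1A stood on the other side at 134, 138 and 218 TPM (-1.81). The remodelers of the SWI/SNF, CHD and related complexes had a median of 1.15, with 18 of 33 above and 5 below. ARID2, a subunit of a SWI/SNF complex, had 4.88, 0.324 and 171 TPM (3.52), and SMARCE1, a small subunit, had 37.3, 44.4 and 54.6 TPM (-3.19).

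With siCtrl as denominator the medians of these lists were 0.54 for methyltransferases and demethylases and 0.44 for remodelers, and with the rRNA-depleted AS library they changed sign, to -0.29 and -0.16. Acetyltransferases, deacetylases and bromodomain readers had a median of 0.69, with 12 of 34 above and 5 below. The coactivator CREBBP had 14.9 TPM in siCtrl, 0.777 in Total and 301 in SG, a difference of 3.81 against Total and 1.30 against siCtrl. Its paralog EP300 had 14.8, 1.44 and 175 TPM (2.65), whereas the deacetylase HDAC2 had 31.6, 39.9 and 49.7 TPM (-3.26). Large scaffolds of the cytoskeleton had a median of 0.95, with 15 of 33 above and 7 below, but of 0.26 with siCtrl and -0.34 with the rRNA-depleted AS library. Among them was the microtubule protein MAP1B at 35.5, 5.55 and 989 TPM (3.61).

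**Figure D4:**
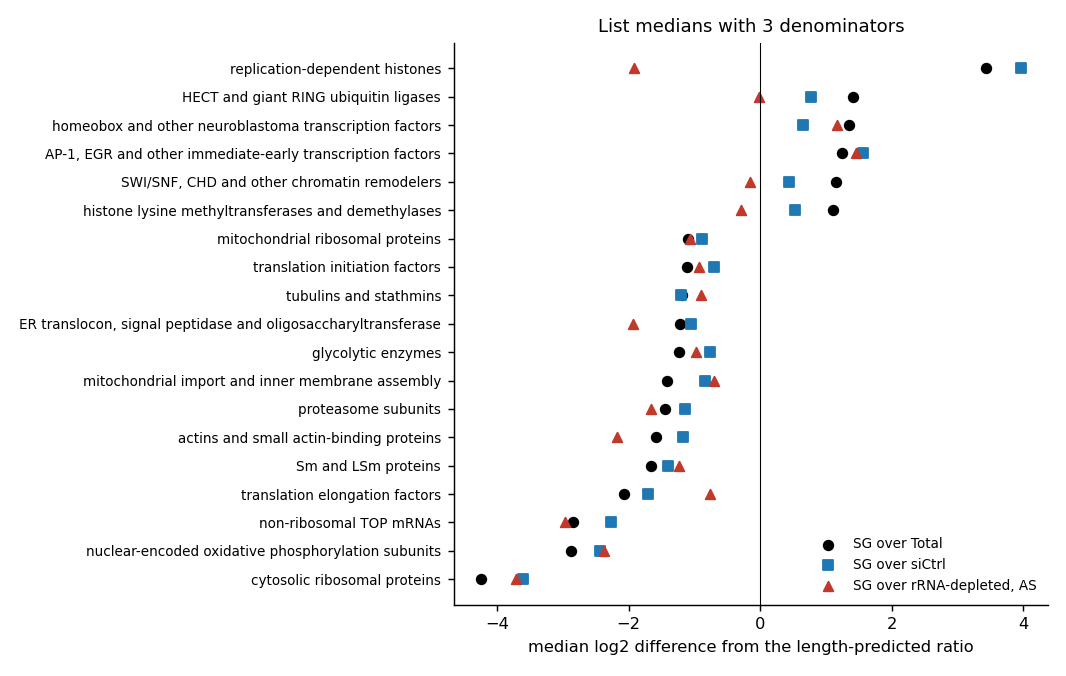
For the 19 lists past 2-fold, points show the median difference from the length-predicted log2 ratio when SG is set against Total, siCtrl or the separately normalized rRNA-depleted AS library. All 13 lists on the lower side stay below 0 with each denominator. Of the 6 on the upper side, histones go from 3.44 to -1.91 and only the 2 transcription factor lists stay more than 2-fold above with the rRNA-depleted library.

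The transcription factors that define sympathoadrenal neuroblastoma cells were high in SG beyond length. Of 21 members 12 lay more than 2-fold above the prediction and none below, with a median of 1.35, and the median was 0.65 with siCtrl and 1.17 with the rRNA-depleted AS library as denominator. MYCN, the neuroblastoma oncogene, had 15.8 TPM in siCtrl, 2.82 in Total and 77 in SG (3.48). PHOX2A, a homeobox factor, had 719, 518 and 296 TPM (-0.60). SOX4 had 103, 33.0 and 613 TPM (2.08) and SOX11 33.0, 27.9 and 969 TPM (1.54). TCF4, a bHLH factor, had 21, 6.81 and 628 TPM (2.86).

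Immediate-early genes, transcribed within minutes of a stimulus and rapidly decayed, had more TPM in SG than in Total in all 24 cases. The same held for 80.0% of all members. Of the 24, 16 lay more than 2-fold above the prediction and 1 below, where the background is 21.7% and 22.5%. The median was 1.24, and it was 1.56 with siCtrl and 1.45 with the rRNA-depleted AS library as denominator. EGR1, a zinc finger factor, had 8.08 TPM in siCtrl, 269 in Total and 3277 in SG, a log2 ratio of 3.60 and a difference of 2.34. FOS had 2.71, 174 and 802 TPM (1.75), and its AP-1 partner JUN had 22.1, 216 and 880 TPM (0.70). For these genes SG exceeded Total as Total exceeded siCtrl.

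Some other members of the list had less TPM in Total than in siCtrl. MYC had 84.5 TPM in siCtrl, 24 in Total and 268 in SG (1.87). ZFP36L2, which binds AU-rich elements and promotes mRNA decay, had 37.9, 10.2 and 136 TPM (2.06), and BTG2, a partner of deadenylases, had 15.2, 12.4 and 136 TPM (2.35). Their SG values were thus above both other libraries as well. BTG1 was the 1 member more than 2-fold below the prediction, with 17, 15.8 and 32.4 TPM (-1.08), and IER2, with 46.8, 123 and 241 TPM, lay at -0.13.

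**Figure D5:**
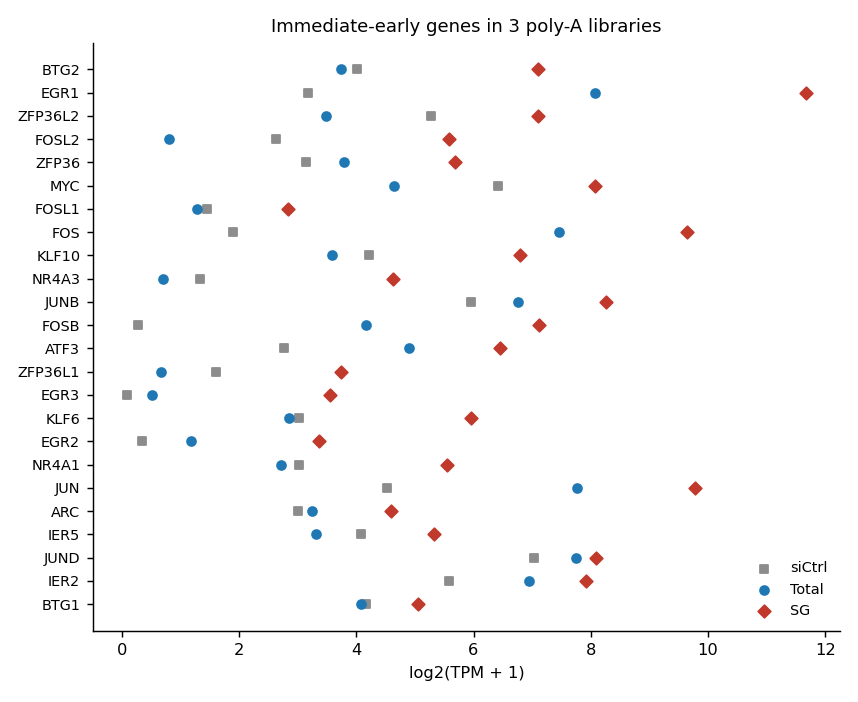
Each row is an immediate-early gene, and its points are log2(TPM + 1) in siCtrl, Total and SG. All 24 are higher in SG than in Total, as are 80.0% of all members. EGR1 and FOS climb at both steps, from 8.08 and 2.71 TPM in siCtrl to 3277 and 802 in SG, while MYC is lower in Total than in siCtrl.

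Zinc finger genes were the broadest group on the upper side. Of 494 members named ZNF or ZFP, 183 lay more than 2-fold above the prediction and 31 below, and 369 were above it at all, with a median of 0.63. ZNF460 was highest, with 0.0887 TPM in siCtrl, 0.635 in Total and 221 in SG (5.52). ZNF207, a kinetochore-associated protein with few fingers, was lowest with 91.2, 41.6 and 60.7 TPM (-3.16). The same held when genes were taken by their protein and not their name. Of 626 members whose coding sequence held at least 3 C2H2 finger motifs, 41.4% were more than 2-fold above the prediction and 5.59% below. For the 165 of them not named ZNF or ZFP, the shares were 53.3% and 4.24% and the median was 1.07.

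P-body and microRNA genes had a median of 0.66, and 14 of 35 lay more than 2-fold above the prediction and 2 below. With the rRNA-depleted AS library as denominator the median was -0.04. TNRC6C, the scaffold of the silencing complex, had 6.88 TPM in siCtrl, 1.28 in Total and 145 in SG (2.42), and AGO2, the slicer, had 6.41, 1.52 and 127 TPM (1.97). DDX6, a helicase that P-bodies and SGs share, had 12.1, 10.4 and 186 TPM (1.32), and the deadenylase subunit CNOT7 had 15.2, 18.1 and 27.9 TPM (-2.24). Genes of SG proteins themselves lay on both sides. Of 34 members 5 lay more than 2-fold above the prediction and 11 below, with a median of -0.19, which was -0.02 with siCtrl and -2.12 with the rRNA-depleted AS library as denominator. PRRC2B (44.5, 4.22 and 710 TPM, 3.48) and PRRC2C (24.3, 8.51 and 451 TPM, 1.98) were high and YBX1, a cold-shock domain protein that packages mRNA, was low at 1149, 1485 and 137 TPM (-4.53). G3BP1 had 18.7, 12.8 and 59.3 TPM (2.12) and G3BP2 38.1, 28.1 and 143 TPM (2.31) on the log2 ratio, with differences from the prediction of -1.51 for G3BP1 and -0.56 for G3BP2.

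Apart from the immediate-early genes, the stress-response lists lay within 2-fold of the prediction by their medians. Cytosolic heat shock chaperones had a median of -0.68 with 2 of 34 more than 2-fold above and 13 below, and HSPA1A, the inducible HSP70, had 15 TPM in siCtrl, 79.3 in Total and 225 in SG (0.87). Targets of NRF2, the factor activated by oxidants, with thioredoxins and peroxiredoxins, had a median of -0.94 with 2 of 31 above and 15 below. TXN, thioredoxin, was low at 174, 233 and 12.7 TPM (-3.80). Genes of the integrated stress and unfolded protein responses had a median of 0.19 with 6 of 22 above and 3 below. PPP1R15B, a subunit of the phosphatase that reverses eIF2α phosphorylation, had 14.4, 5.63 and 160 TPM (2.25), and CHAC1, an ATF4 target, had 19.1, 41.1 and 107 TPM (1.83).

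mRNAs of membrane and secreted proteins, which are translated at the ER, did not share a side. Members with 0, 1 and 2 or more predicted hydrophobic segments had medians of 0.00, 0.03 and 0.01. Voltage-gated channels had a median of -0.47 with 8 of 66 more than 2-fold above and 20 below, ligand-gated channels one of -0.53 with 2 of 26 above and 6 below, and collagens and laminins one of -0.58 with 3 of 26 above and 11 below. With the rRNA-depleted AS library the median of collagens and laminins turned to 0.94. Axon guidance receptors and semaphorins leaned the other way, with a median of 0.61 and 18 of 53 above against 9 below. PLXNA4, a semaphorin co-receptor, had 22.6 TPM in siCtrl, 0.516 in Total and 232 in SG, 3.57 above the prediction from Total and 0.26 above it from siCtrl. NPY, a secreted neuropeptide, had 621, 317 and 42.0 TPM (-2.76).

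Families formed from the letters of the gene symbol repeated part of the lower end of the lists, largely with the same genes. At the upper end only the KDM family had a counterpart among the 6 upper lists. This was the list of histone lysine methyltransferases and demethylases, and KDM1A was lowest in both. Histone symbols, with a single letter before the first digit, formed no family. Of 93 families with at least 15 members, 42 had a median below 0 and 51 one above it. Those more than 2-fold below were RPL (-3.94), RPS (-3.37), COX (-2.65), MRPL (-1.20) and EIF (-1.11). Those more than 2-fold above were PCDHB, the beta cluster of protocadherins (1.15, with 10 of 15 above and none below), KDM (1.12, 11 of 17 above and 1 below) and ZBTB, zinc finger factors with a BTB domain (1.08, 23 of 39 above and none below). With siCtrl and with the rRNA-depleted AS library as denominators the ZBTB median was 0.99 and 1.14, and the PCDHB median 1.16 and 2.28. PCDHB genes have a single coding exon and near-identical copies. The clustered protocadherins as a whole had a median of 0.04, which was -0.32 with siCtrl and 2.36 with the rRNA-depleted AS library.

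Genes with a canonical transcript of 1 exon lay above the prediction beyond the histones. For 400 such members the median was 0.97, with 48.8% more than 2-fold above and 7.75% below, and for the 336 left without histones it was 0.82, with 40.5% above and 8.93% below. Several annotation features differed between the classes. Median coding length was 1065 nt below the prediction, 1452 near it and 1545 above it, and median 5′UTR length was 99, 146 and 176 nt. Canonical transcript length was 2631, 3307 and 3772 nt, although the longest-transcript length used for the prediction was 4076, 3659 and 3951 nt. GC content of the longest transcript was 47.9%, 49.6% and 48.0% and did not follow the order of the classes. Genes below the prediction had a median of 9 annotated transcripts, and genes above it 6.

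The other libraries were compared over the same classes. The log2 ratio of Total to siCtrl had a median of -0.04 in genes below the prediction, -0.37 near it and -0.83 above it, so genes above the prediction tended to be lower in Total than in siCtrl. Total stands in both quantities, so this is no independent measurement. eCLIP values of G3BP1 and G3BP2 were taken as deviations from the running median over genomic span on the log10 scale. In the 8 libraries the class above the prediction was lower than the class below it by 0.010 at the least and 0.070 at the most. Spearman correlations of these deviations with the difference from the prediction ran from -0.072 to -0.028. With canonical length in the prediction they ran from -0.0068 to 0.029. No spread over genes is given for these deviations, and they were not adjusted for mRNA level. Whether binding by either protein differs between the classes was not tested.

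Single genes filled out both ends. Among genes with a symbol and above 10 TPM, those far above the prediction outside the histones included ZC3HAV1L, a relative of a zinc finger antiviral protein. It had 5.10 TPM in siCtrl, 0.326 in Total and 92.1 in SG (6.21). TBX20, a T-box factor, had 2.67, 0.262 and 75.5 TPM (5.92). STPG3 was listed at 0 in siCtrl and Total and had 18.7 TPM in SG. EFNA4-EFNA3, a read-through of neighbouring ephrin genes with shared exons, had 23.0, 5.46 and 119 TPM (5.28) and is uncertain for that reason. HIPK2, a kinase of the DNA damage response, had 9.65, 1.81 and 584 TPM (4.01), and the synaptic vesicle calcium sensor SYT1 had 9.26, 0.216 and 122 TPM (3.92). Against siCtrl the difference of SYT1 was 1.52 and that of HIPK2 2.73. Of these genes, ZC3HAV1L, TBX20, STPG3 and SYT1 were members through SG alone.

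At the lower end outside ribosomal proteins and TOP mRNAs, ITGAE, an integrin chain, had 20.6 TPM in siCtrl, 22.3 in Total and 0.223 in SG (-5.82). C4orf48, a small secreted protein, had 310, 312 and 6.98 TPM (-5.80), and CAMTA1, a calmodulin-binding factor, had 80.9, 120 and 30.6 TPM (-5.39). TMED3, a cargo receptor between ER and Golgi, stood at -5.81 with 87.0, 81.1 and 17.9 TPM, but at -1.90 when its canonical length was used. MIF, a cytokine, had 870, 1085 and 43.2 TPM (-5.12), its exons overlapping another annotated gene, and EBPL had 77.5, 109 and 3.27 TPM (-3.60). Of RNAs on the other side, PRKCA, a protein kinase C, and SPTBN1, a spectrin, stood at 54.2, 17.1 and 617 TPM (1.56) and at 73.8, 19.3 and 933 TPM (1.94).

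The cells' identity was checked against markers. Of 13 sympathoadrenal genes 12 were above 1 TPM in Total and in SG, and TH, the exception, had 0.113 in Total and was listed at 0 in SG. Of 6 glial markers none was above 1 TPM in either library, nor was any of 5 epithelial and liver markers, and of 5 blood markers only LYZ was, at 1.38 in SG. Of 5 mesenchymal markers 3 were above 1 TPM in Total and 4 in SG, led by TWIST1 at 344 and 855. The protein-coding TPM summed to 623955 in Total and 735927 in SG, and 4519 and 2942 genes were listed at 0. Exons of 2055 members overlapped another coding gene on the same strand, and their shares above and below the prediction, 24.5% and 24.2%, were near those of all members. Of the genes described here with values, ITCH, KMT2D, PRRC2B, PSMA2, PSMA6, SDHA, SMARCE1 and TUBB3 are among them, besides those marked above, and RPS29, EEF1A1, H2BC18 and ITGAE overlap a gene on the other strand. Whether strand was used in making the TPM is not given in the sources used here, so these values are uncertain.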

How the data were processed

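SG, Total and siCtrl were taken from one table, and the rRNA-depleted and eCLIP libraries from separate ones. For the first, the authors aligned reads to GRCh38 with HISAT2 2.1.0 and ran StringTie, and the deposited TPM cover protein-coding genes. Values in the rRNA-depleted table are per transcript. Their sums exceed what TPM allow, so the deposited numbers were handled as a signal and added up per gene. On the log10 scale, the authors deposited 1 eCLIP value per gene and library. No value column was left without a sample.

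Log2 ratios were taken of TPM + 1, over genes above 1 TPM in SG or Total. This pseudocount understates differences of low genes. The prediction was the running median over 40 equal-count bins of log10 longest-transcript length. Lengths came from GENCODE release 44 (the authors used 41), which held 19910 of 19942 rows and 91.1% of the rRNA-depleted transcripts. Starts came from RefSeq on GRCh38.p14. Finger motifs and hydrophobic segments (window of 19 residues, mean Kyte-Doolittle index above 1.6) were computed from translated GENCODE coding sequences, and not from RefSeq proteins as planned.

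Members and lists were chosen with earlier results of these data known. Genes named are the 12 farthest from the prediction at each end above 10 TPM, the 3 highest and 3 lowest such genes of each list, and RNAs the study names, of which a selection is given. Some genes that meet this rule are left out. Rankings outside histones, ribosomal proteins and overlapping genes, and genes named inside a list beyond its 3 at each end, were chosen after their values were seen. Alternatives covered the denominator, length, level, GC, pseudocount, filter, fold and leaving out each eCLIP replicate. Of the steps, only the length prediction was tested on simulated data. That simulation had less scatter between genes than these libraries, and every gene in it was above 1 TPM in Total. The software was Python 3.11.15 with matplotlib 3.10.9, pandas 2.3.3, numpy 2.4.6 and scipy 1.17.1.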

Additional observations from a re-analysis of the deposited data

How the results depend on the processing

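The lists above the prediction depended most on the processing. Against 6 lists more than 2-fold above it, there were 3 with a pseudocount of 0.1, 3 over genes above 10 TPM, 10 without a filter, 20 when only the library-wide median was removed, and 2 with siCtrl as denominator. Against 13 lists below, there were 5 when the siCtrl level joined length in the prediction, under which glycolytic enzymes turned to 0.15. With the rRNA-depleted AS library as denominator, the medians of HECT and giant RING ubiquitin ligases turned to -0.024, histone lysine methyltransferases and demethylases to -0.29, remodelers to -0.16 and replication-dependent histones to -1.91. The cause was not tested. At a 4-fold limit 781 genes lay above and 1191 below, by construction fewer. Under the other alternatives both counts stayed within 1.5 times the reported 2939 and 3054. Of 285 values for the 19 lists past 2-fold, 280 kept their sign. Canonical length, an alternative added after seeing the data, gave 4 lists above and 10 below. In AS-treated cells, leaving out 1 eCLIP replicate gave high-minus-low differences of -0.010 to -0.064 for G3BP1 and -0.040 to -0.064 for G3BP2. No paired analysis was possible because SG and Total are 1 library each and no result comes from a test across samples. TPM gives no depth, so the precision of low genes is unknown.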
